A study of Mus musculus with 6 samples.

Results

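The small RNAs described here are those of unstimulated mouse bone marrow monocytes/macrophages (BMMs), taken as the 3 Control samples among the 6 samples of the study. The cells came from C57BL/6 wild-type mice and received PBS. The other 3 samples, given 5 pg/ml LPS, are not analysed here. The labels call the cells bone marrow monocytes and give DMEM as the medium, where the study's methods give RPMI. The labels do not say whether the samples came from separate animals or cultures, so the spread between them may be technical.

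Each distinct read sequence of a sample was deposited with its count, and the 3 samples held 3880822, 2415199 and 3573135 reads. Reads of 18 nt or more that matched a mouse miRNA hairpin, with up to 3 unmatched bases at the 3′ end, were counted as miRNA reads, which gave 2557224, 1713855 and 2365717 of them, or 67.7% ± 2.84 of all reads (SD, n = 3). They fell on 818 hairpin arms of 627 hairpins. All levels are given as the share of a sample's miRNA reads. A share depends on how well each sequence is ligated and amplified as well as on its abundance, and in a bulk sample fewer cells of a type and less RNA per cell cannot be told apart.

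A miRNA is cut from a hairpin transcript, by Drosha in the nucleus and by Dicer in the cytoplasm. Either arm of the hairpin, named 5p or 3p, can be loaded into an Argonaute protein. The loaded strand finds messenger RNAs mainly through its seed, the bases 2 to 8 from its 5′ end, so that miRNAs with a common seed are grouped as a family and a shift of the 5′ end by a single base gives another seed. In macrophages miR-223 and miR-142 are known as marks of the blood lineage, and miR-155 and miR-146a as miRNAs that rise after Toll-like receptor signalling.

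The sequences below are those of the most abundant arms that have a RefSeq entry (GRCm38.p6). They are shown because these few molecules made up most of the miRNA reads, and the seed is in capitals.
miR-22-3p: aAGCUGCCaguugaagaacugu
miR-27b-3p: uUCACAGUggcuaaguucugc
miR-21a-5p: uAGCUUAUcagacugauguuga
miR-10a-5p: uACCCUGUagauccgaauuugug
miR-16-5p: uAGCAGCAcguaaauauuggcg
let-7f-5p: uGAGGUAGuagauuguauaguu
miR-191-5p: cAACGGAAucccaaaagcagcug
miR-92a-3p: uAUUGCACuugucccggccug
miR-142a-5p: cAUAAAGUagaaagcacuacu
miR-26a-5p: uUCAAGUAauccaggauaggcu
Of the 818 arms with reads, 645 could be named from RefSeq. miR-22-3p comes from Mir22 on chromosome 11 (75463716 to 75463810, plus strand, GRCm38), in an exon of its host transcript Mir22hg. Mir27b lies on chromosome 13 (63300712 to 63300784, plus strand) and overlaps an exon of the protein-coding gene 2010111I01Rik. Mir21a lies on chromosome 11 (86584067 to 86584158, minus strand) and overlaps an exon of Vmp1.

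The BMM repertoire was dominated by 3 arms. miR-22-3p, miR-27b-3p and miR-21a-5p together held 54.7%, 54.1% and 50.9% of the miRNA reads in Control 1, 2 and 3, and in each sample no fewer than 3 arms were needed to reach 50% of the reads. The 10 most abundant arms held 72.6% ± 1.60 (SD, n = 3). Between 29 and 31 arms made up 90% of the reads, 102 to 107 arms made up 99%, and 63 arms had a mean share of at least 0.1%. At the other end, 602 to 667 arms had at least 1 read in a sample, so most detected arms contributed next to nothing to the total.

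miR-22-3p, studied in myeloid differentiation and as a repressor of Tet2, took 19.72%, 19.62% and 19.95% of the miRNA reads. miR-27b-3p, known to repress the lipid regulator Pparg, took 19.1%, 18.1% and 18.6%. miR-21a-5p, a miRNA of growth and inflammation that represses Pdcd4, took 15.9%, 16.4% and 12.4%. The first pair held nearly constant as shares, with means of 19.8% ± 0.171 and 18.6% ± 0.499 (SD, n = 3). After TMM scaling their highest sample was 1.11-fold and 1.15-fold above the lowest. miR-21a-5p was lower in Control 3 than in the others and had a mean share of 14.9% ± 2.22. Counting error was small beside this spread, since the 95% Wilson intervals of miR-21a-5p were 15.90% to 15.99%, 16.38% to 16.49% and 12.33% to 12.41%. The 3 arms did not overlap one another, nor did miR-21a-5p overlap the arm that followed.

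After these the shares dropped to a few percent. miR-10a-5p, which is encoded in the Hoxb cluster, took 3.71%, 2.74% and 3.38%. miR-16-5p, a repressor of Bcl2 and of cell cycle genes, took 2.51%, 2.94% and 3.42%. let-7f-5p, of the differentiation-linked let-7 family, took 3.00%, 2.68% and 3.11%. These arms overlapped one another across the samples, so their order was not resolved. miR-191-5p had a mean of 2.69% ± 0.174, miR-92a-3p of the miR-17~92 cluster 2.55% ± 0.333, the haematopoietic miR-142a-5p 2.53% ± 0.160, and miR-26a-5p 2.39% ± 0.226 (SD, n = 3). Of the 20 most abundant arms, 16 had a range that overlapped that of the arm ranked just below. The exceptions were the 3 leading arms and miR-181a-5p, which stood at 1.52% ± 0.0823 and did not overlap let-7a-5p at 1.11% ± 0.119.

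The remaining arms among the first 20 were miR-30d-5p (2.28% ± 0.151), miR-222-3p (1.83% ± 0.514), let-7i-5p (1.77% ± 0.204), miR-30e-5p (0.949% ± 0.0985), miR-221-3p (0.872% ± 0.171), let-7c-5p (0.733% ± 0.0845), miR-378a-3p (0.728% ± 0.0172) and miR-99b-5p (0.716% ± 0.207). miR-222-3p and miR-221-3p, known repressors of Kit and of the cell cycle inhibitor p27, were both lowest in Control 1. The order of miR-92a-3p depended on the treatment of read ends. Only 20.03%, 23.08% and 26.50% of its reads matched the hairpin to the last base, against a median of 85.9% over the 80 arms compared, and its share was 0.672% when no unmatched base was allowed.

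**Figure D1:**
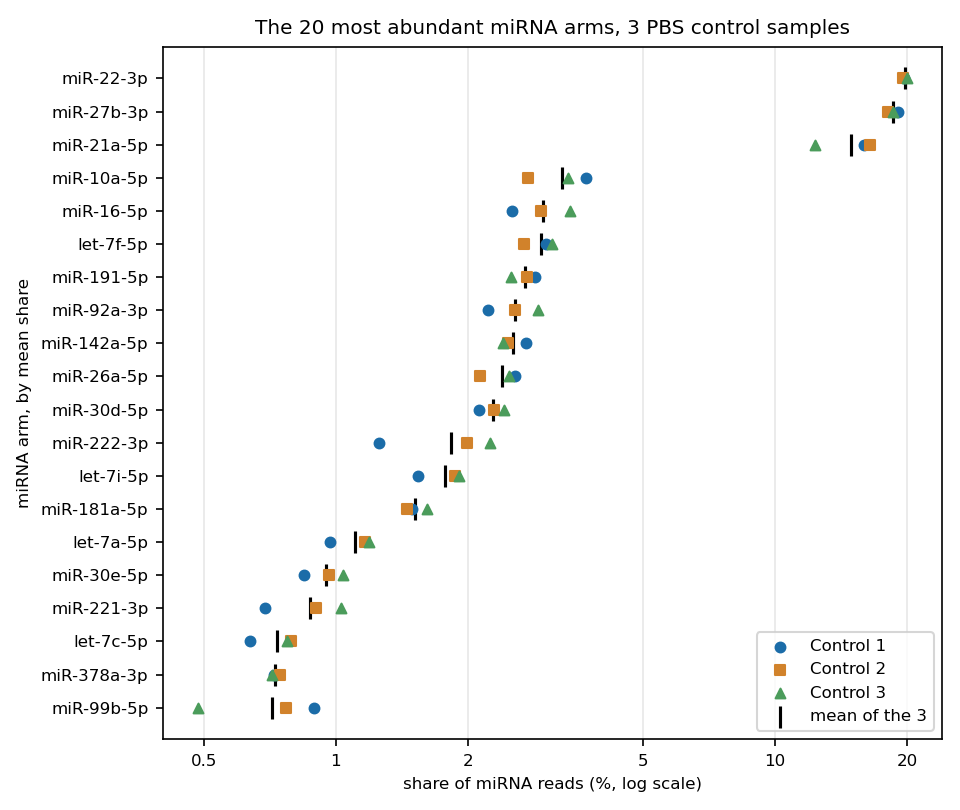
Share of miRNA reads (percent, log axis) of the 20 most abundant arms in each of the 3 control samples, with the mean as a bar. miR-22-3p, miR-27b-3p and miR-21a-5p sit above 12%, apart from the rest, which lie below 4%.

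The study followed miR-24 and miR-29, and neither was among the abundant miRNAs of unstimulated BMMs. miR-24-3p ranked 48 with 3849, 2756 and 5350 reads, or 0.151%, 0.161% and 0.226% of the miRNA reads, and it was highest in Control 3. miR-29a-3p, which represses collagen genes, ranked 39 at 0.276%, 0.271% and 0.264%. miR-29c-3p ranked 83 at 0.0421% ± 0.00509 and miR-29b-3p ranked 113 at 0.0191% ± 0.000426 (SD, n = 3). miR-24-3p is made from Mir24-1 on chromosome 13 (63301208 to 63301275) and Mir24-2 on chromosome 8 (84208815 to 84208921), and its reads cannot be assigned to either.

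Lineage miRNAs were read to check the label. All 7 haematopoietic and myeloid arms on the list had a mean of at least 10 reads, and together they held 3.75% to 3.93% of the miRNA reads. miR-223-3p, a mark of granulocytes and monocytes, had 14363, 9849 and 14406 reads and a mean share of 0.582% ± 0.0244 (SD, n = 3), which placed it at rank 23. miR-142a-5p ranked 9 and miR-142a-3p ranked 30, at 0.412% ± 0.0480. miR-342-3p, from an intron of Evl, stood at 0.127% ± 0.0182, and miR-322-5p, the mouse counterpart of miR-424-5p, at 0.1235% ± 0.01005. miR-511-3p and miR-511-5p, from an intron of the macrophage mannose receptor gene Mrc1, stood at 0.0434% ± 0.00529 and 0.0186% ± 0.00167.

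Of the 12 arms on the list of macrophage response miRNAs, 9 had a mean of at least 10 reads, and the list held 16.11% to 19.97% of the reads, mostly through miR-21a-5p. miR-155-5p, the best known Toll-like receptor response miRNA, was low in all samples, with 159, 129 and 116 reads and a share of 0.00622% ± 0.00131 (SD, n = 3). miR-146a-5p, which represses Irak1 and Traf6, was about as abundant as miR-142a-3p at 0.377% ± 0.0865. miR-146b-5p had 570, 537 and 1428 reads, so that Control 3 stood apart from the others. miR-125b-5p was at 0.149% ± 0.0199, miR-147-3p had 39, 43 and 41 reads and miR-132-3p had 42, 19 and 57. miR-212-3p, miR-187-3p and miR-9-5p had a mean below 10 reads.

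Marks of other cell types were mostly low. The red cell miRNA miR-451a had 1 read in all 3 samples together and its cluster partner miR-144-3p had none. miR-486-5p, also known from red cells, had 2635, 1660 and 1851 reads, which Mir486 and Mir3107 share. The endothelial miR-126a-3p had 11, 8 and 17 reads and miR-126a-5p had 77, 57 and 94. The 5 stromal arms together held 0.00106% to 0.00117% of the reads, of which miR-199a-3p, whose reads miR-199b shares, had 22, 14 and 16 reads. The lymphoid list held 1.59% to 1.76%, nearly all of it miR-181a-5p and miR-181b-5p (0.132% ± 0.0282), while miR-150-5p, the mark of mature lymphocytes, had 38, 31 and 55 reads.

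Of the 10 epithelial arms 7 had a mean of at least 10 reads, and the list held 0.106% to 0.130%. miR-192-5p made up most of this, at 0.105% ± 0.0131 (SD, n = 3). The other 6 ranged from the 16, 10 and 9 reads of miR-215-5p to the 95, 80 and 127 reads of miR-194-5p. In between lay miR-200a-3p with 14, 9 and 30 reads, miR-200b-3p with 68, 55 and 81, miR-141-3p with 71, 65 and 66, and miR-429-3p with 35, 29 and 45. The neural miR-128-3p had 566, 494 and 657 reads and miR-138-5p had 71, 47 and 108, whereas miR-124-3p and miR-137-3p had none. No read fell on 4 of the 6 muscle arms or on any of the 8 arms of pluripotent cells. The muscle arms miR-133a-3p and miR-499-5p and the liver miR-122-5p had 1 read each in all samples together. A count of 0 in a library allows a share of up to 0.000117% to 0.000175%, the share of 3 reads.

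Grouped by seed, the repertoire was more concentrated still. The 10 most abundant seed families held 80.3% ± 0.370 of the miRNA reads (SD, n = 3). The leading families were in effect single miRNAs: miR-22-3p was alone with its seed, miR-21a-5p likewise, and miR-27b-3p made up 96.3% of the family it forms with miR-27a-3p. The miR-27 family held 19.7%, 18.8% and 19.3% of the reads. The miR-10 family was 99.983% miR-10a-5p, since miR-10b-5p had 13, 12 and 11 reads.

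The let-7 family was the clearest exception, with 9 arms that share the seed GAGGUAG and no dominant member. These sequences are shown because the family total, 7.02%, 7.48% and 7.94%, was spread over them.
let-7f-5p: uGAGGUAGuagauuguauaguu
let-7i-5p: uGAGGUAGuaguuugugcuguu
let-7a-5p: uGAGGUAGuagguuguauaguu
let-7c-5p: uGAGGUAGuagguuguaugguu
let-7g-5p: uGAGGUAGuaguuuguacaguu
let-7d-5p: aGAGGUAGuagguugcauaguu
let-7e-5p: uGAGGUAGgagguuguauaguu
miR-98-5p: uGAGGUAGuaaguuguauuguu
let-7b-5p: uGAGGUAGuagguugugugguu
let-7f-5p made up 39.2% of the family, and the smallest member, let-7b-5p, had a share of 0.0694% ± 0.00737 of the miRNA reads. As members are nearly alike in sequence, a sequencing error can move a read from one to another. The miR-30 family was also divided, with 58.6% of its 3.89% ± 0.346 from miR-30d-5p and the rest from miR-30e-5p, miR-30b-5p, miR-30c-5p and miR-30a-5p.

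The other large families had a leading arm. miR-16-5p made up 90.1% of the miR-15/16 family (3.28% ± 0.471), miR-26a-5p 84.1% of the miR-26 family (2.84% ± 0.256), and miR-92a-3p 89.9% of the miR-25/92 family (2.84% ± 0.358). The miR-221/222 family, at 1.94%, 2.89% and 3.27%, was the most variable of the 10, and 67.7% of it was miR-222-3p.

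**Figure D2:**
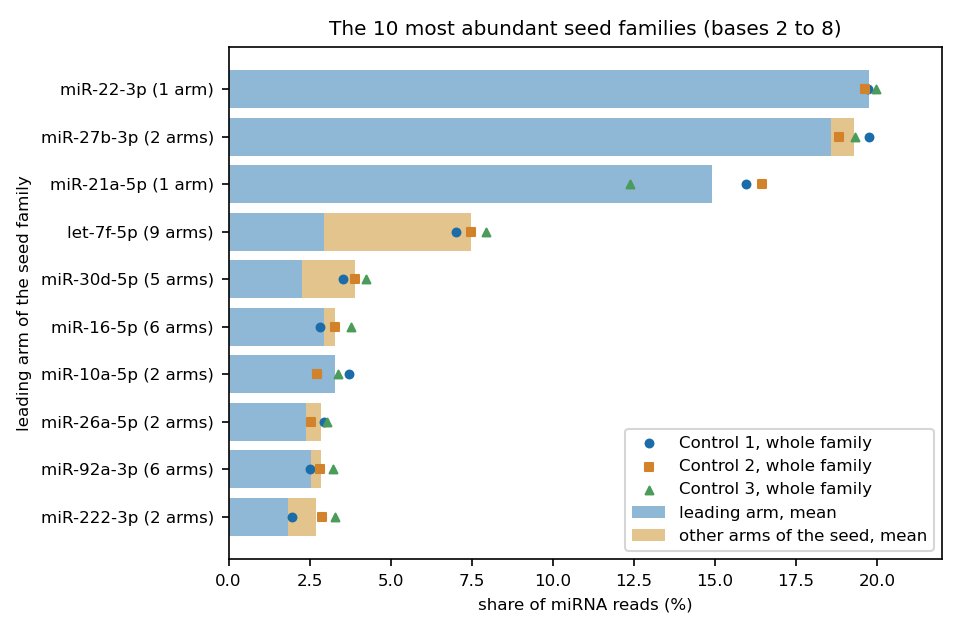
Share of miRNA reads (percent) of the 10 most abundant seed families. Bars are means of the 3 samples, split into the leading arm and the other arms with that seed, and points are the family totals of each sample. Only the let-7 bar has most of its length outside the leading arm.

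Most arms were cut at a single 5′ position. Among 81 arms of 1000 reads or more on average, 65 had at least 90% of their reads on one start. miR-22-3p had 99.7% and miR-27b-3p 99.5% of reads on the leading seed. The 3′ ends were less fixed: the most common read of miR-27b-3p was 20 nt long and made up 61.9% of the arm, and that of miR-21a-5p was 24 nt and made up 35.6%. Of 71 of these arms with a RefSeq entry, 68 had the RefSeq seed in their most common read and 38 were the same over the whole length. The other 3 were miR-142a-3p, miR-140-3p and miR-3963.

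A few abundant arms carried a pair of seeds, and their most common reads are shown in the letters of the files, with the seed of each start in capitals. The leading start is the one with the larger mean percentage over the samples.
miR-142a-5p, leading start: cATAAAGTagaaagcactact
miR-142a-5p, next start: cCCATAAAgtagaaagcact
miR-142a-3p, leading start: aGTGTTTCctactttatggatg
miR-142a-3p, next start: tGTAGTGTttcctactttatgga
miR-140-3p, leading start: aCCACAGGgtagaaccacggac
miR-140-3p, next start: tACCACAGggtagaaccacgga
miR-146a-5p, leading start: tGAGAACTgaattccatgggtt
miR-146a-5p, next start: cTGAGAACtgaattccatgggtt
miR-10a-5p, leading start: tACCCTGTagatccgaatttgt
miR-10a-5p, next start: aCCCTGTAgatccgaatttgtg
In miR-142a-5p the RefSeq start had 49.5%, 52.4% and 53.9% of the reads, and a start 2 bases upstream had 48.5%, 45.5% and 44.1%. In miR-142a-3p the leading start lay 3 bases downstream of the RefSeq start and had 48.7%, 48.4% and 46.4%, against 27.0%, 25.7% and 27.2% at the RefSeq start. Both arms of this blood-lineage hairpin were therefore read with more than one seed in all samples.

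miR-140-3p, a miRNA of cartilage that lies within Wwp2, had 50.9%, 52.3% and 48.1% of its reads on a start 1 base downstream of the RefSeq start and 44.9%, 43.9% and 48.3% on the RefSeq start, so the downstream start led in Control 1 and 2 but not in Control 3. miR-10a-5p had 74.9%, 73.2% and 73.3% on the RefSeq start, and most of the others 1 base downstream. miR-101a-3p was split as well, with 64.2%, 58.9% and 58.3% on the leading start. In these arms the division was close to equal in the 3 samples.

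miR-146a-5p differed from them, since its division moved from sample to sample. The RefSeq start held 47.1%, 62.3% and 74.4% of its reads, and the start 1 base upstream held 52.6%, 37.4% and 25.5%. In reads, the RefSeq start had 4784, 4824 and 4963 and the upstream start 5339, 2892 and 1701. As shares of all miRNA reads the upstream form varied 2.90-fold between its lowest and highest sample and the RefSeq form 1.505-fold. In the same libraries miR-142a-5p, miR-10a-5p and miR-140-3p showed no change of this size. The cause of the shift in miR-146a-5p was not tested.

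**Figure D3:**
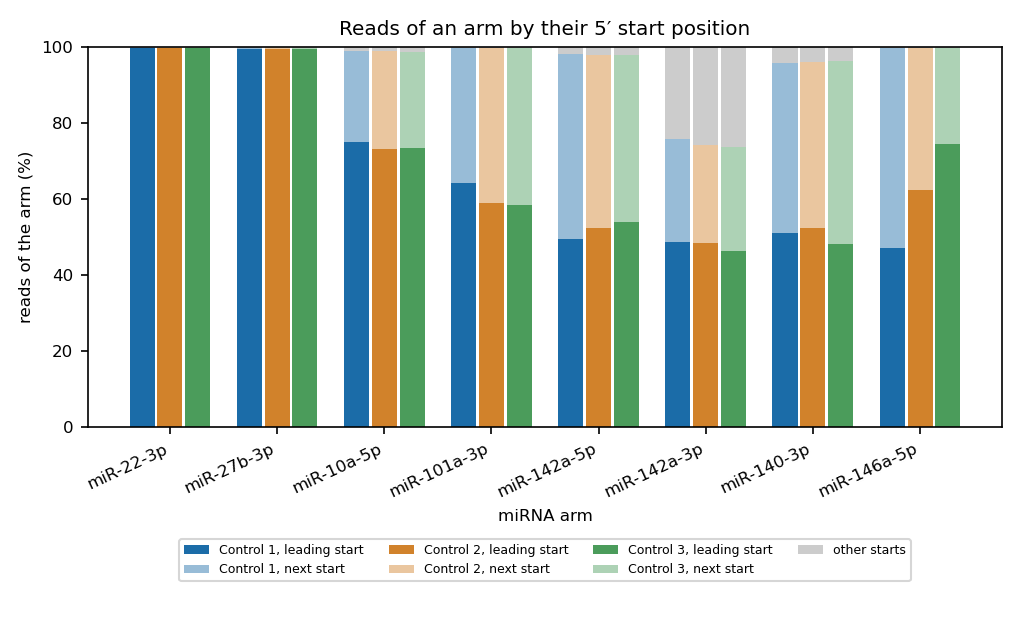
Reads of an arm (percent) by 5′ start position in the 3 control samples: leading start by mean in full colour, next start in pale colour, other starts in grey. miR-22-3p and miR-27b-3p have practically a single start, miR-142a-5p and miR-140-3p are split in like proportion in each sample, and the leading start of miR-146a-5p goes from 47.1% to 74.4%.

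Next, the arms of each hairpin were compared within the libraries. The abundant hairpins were read almost wholly from one arm, and both sides were used: 3p arms held 52.1% ± 1.28 and 5p arms 47.9% ± 1.28 of the miRNA reads (SD, n = 3). Of 125 hairpin groups with a mean of at least 100 reads, 65 had more 5p reads, which is 52% of those tested, and 55 had more 3p reads, or 44% (edgeR's quasi-likelihood test with the library as a block, Benjamini-Hochberg adjusted p under 0.05). In 91 groups the arms differed at least 10-fold and in 49 at least 100-fold, while in 13 they differed less than 2-fold.

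Mir22 had 504170, 336306 and 472058 reads of its 3p arm and 214, 122 and 200 of its 5p arm, so that the log2 ratio of 5p to 3p reads was -11.27 (SE 0.16, adjusted p = 2.57e-167, edgeR). Mir27b was also read from the 3p arm, with a log2 ratio of -9.26 (SE 0.15), and Mir92-1 had -8.37 (SE 0.19), which was -6.27 when no unmatched base was allowed. Mir21a was read from the 5p arm, with 407815, 281654 and 292579 reads against 3695, 2308 and 2662 and a log2 ratio of 6.83 (SE 0.14). The minor arm of Mir21a, at 0.813% to 0.902% of the hairpin, was thus far more evident than that of Mir22, at 0.0363% to 0.0424%.

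Other hairpins led by the 5p arm were Mir10a at a log2 ratio of 10.58 (SE 0.21), Mir191 at 10.44 (SE 0.22), Mir26a-1 with Mir26a-2 at 11.92 (SE 0.24), the let-7f hairpins at 9.01 (SE 0.20) and Mir16-1 with Mir16-2 at 6.58 (SE 0.17). That of the let-7f hairpins was 12.42 with no unmatched base. Mir142 stood out among the 10 hairpin groups with most reads. It had 69262, 42327 and 56899 reads of the 5p arm and 9567, 6769 and 11015 of the 3p arm, which is a log2 ratio of 2.62 (SE 0.14, adjusted p = 2.88e-47, edgeR). Its minor arm made up 12.1%, 13.8% and 16.2% of the hairpin, and no other of the 10 groups reached 2%.

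The most one-sided groups of at least 1000 reads had almost no reads of the minor arm. Mir484, Mir3963 and Mir192 had 0 reads of the 3p arm in all libraries, and their 5p arms were at least 2935-fold, 2449-fold and 2306-fold higher, against 3 reads over the group. The value of Mir3963 rested on short reads with unmatched ends: its most common read was 18 nt long, 0, 0 and 2 of its 2103, 2230 and 3015 reads had at most 1 unmatched base, and whether they came from this hairpin was not tested. Mir103-1 with Mir103-2 had 0, 1 and 2 reads of the 5p arm and 11937, 8719 and 12923 of the 3p arm. Mir101b had 2, 0 and 1 reads of its 5p arm against 1639, 1066 and 1718, and Mir23b and Mir23a were read from the 3p arm at log2 ratios of -10.06 (SE 0.28) and -9.97 (SE 0.27). That of Mir23b was -9.08 with exact matches alone, and that of Mir23a was -10.71 without Control 2.

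At the other extreme were hairpins that gave both arms. Mir106b, of the miR-17 seed group, had 642, 462 and 712 reads of the 5p arm and 576, 441 and 638 of the 3p arm, and the log2 ratio of 0.13 (SE 0.12) did not pass the test (adjusted p = 0.281, edgeR). Mir339 had 825, 503 and 848 against 667, 435 and 825, with a log2 ratio of 0.18 (SE 0.12, adjusted p = 0.138, edgeR). With no unmatched bases allowed both passed the test, at log2 ratios of 0.37 and 0.89. Mir152, Mir877 and Mir6240 did not pass either.

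The miR-24 hairpins Mir24-1 and Mir24-2, counted as a group because they share the 3p arm, were nearly even. The leading 5p arm of the group was miR-24-2-5p of Mir24-2, so the ratio is not that of either hairpin alone. The 5p arms had 3256, 2379 and 3259 reads and the common 3p arm 3849, 2756 and 5350, so the 3p arm was higher in each sample, at a log2 ratio of -0.39 (SE 0.16, adjusted p = 0.0166, edgeR). This direction depended on the read ends. miR-24-3p matched the hairpin to the last base in 47.6%, 52.8% and 53.4% of its reads, and with exact matches alone the 5p arms were higher, at 0.57 (SE 0.18). Without Control 3 the log2 ratio was -0.23 and without Control 2 it was -0.48, and neither passed the test. At the same ratio of -0.39 it did not pass with DESeq2 (adjusted p = 0.0577) or limma (adjusted p = 0.0785) either.

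Other groups with both arms in quantity were Mir125b-1 with Mir125b-2 at a log2 ratio of 0.66 (SE 0.16) and Mir872 at 0.90 (SE 0.12). The leading 3p arm of the Mir125b group was miR-125b-2-3p of Mir125b-2, while both hairpins share miR-125b-5p. Mir151 stood at -1.06 (SE 0.16) and Mir511 at -1.22 (SE 0.12). Mir28a stood at 1.69 (SE 0.12), Mirlet7d at 1.84 (SE 0.16) and Mir130b at -2.13 (SE 0.15). Exact matches alone gave -0.29 for Mir151, which no longer passed (adjusted p = 0.122, edgeR), -0.47 for Mir130b and 2.42 for Mir28a. Without Control 2 the Mir125b group stood at 0.62 and narrowly failed the test (adjusted p = 0.0503, edgeR). Mir511 is the macrophage hairpin within Mrc1, and its 5p arm held 29.4% to 30.8% of its reads in the 3 samples. In Mir130b the 5p arm held 15.1%, 19.1% and 21.9%.

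The major arm had traits that were not used to define it. In 94 tested groups with at least 10 reads on both arms, 47 major arms began with U, or 50%, against 15 minor arms, or 15.96%, and 45 minor arms began with C. The median length of the most common read was 22 nt for both. The start was more fixed in major arms, with a median of 98.98% of reads on one position against 95.8%. These are counts over hairpins, which are not replicates, and no test was made.

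**Figure D4:**
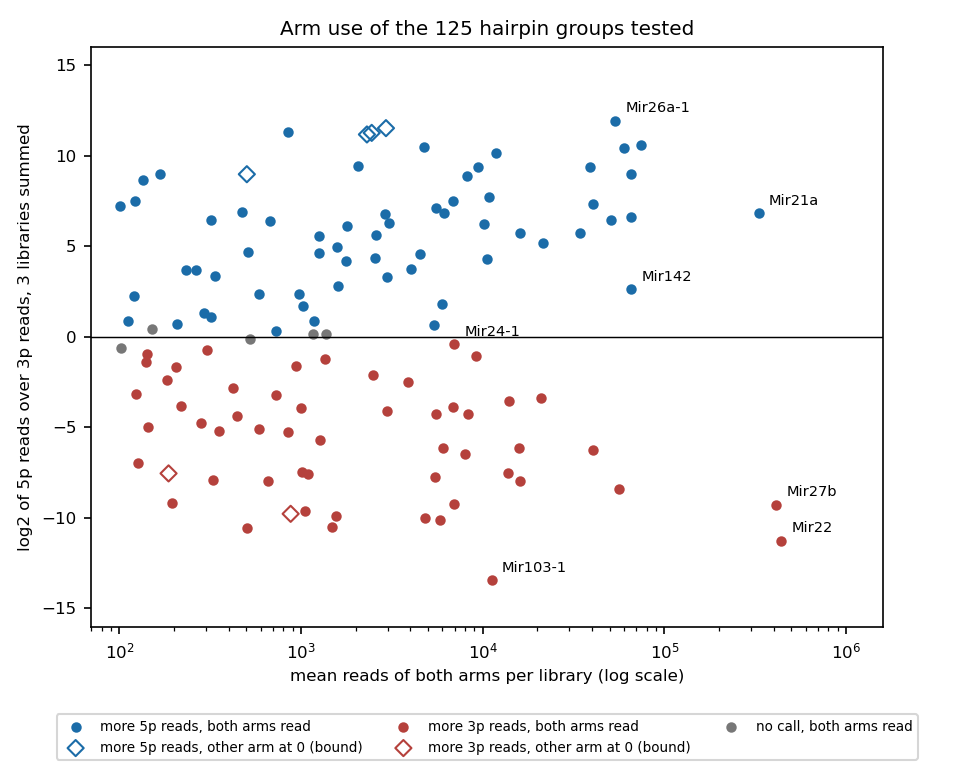
Log2 of 5p over 3p reads, summed over the 3 samples, against the mean reads of both arms (log axis) for 125 hairpin groups. Blue points had more 5p reads, red more 3p reads, grey did not pass the test, and open diamonds are bounds where the other arm had 0 reads. The 65 blue and 55 red points spread to both sides at every depth, and only a few lie near 0.

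Neighbouring hairpins that may be cut from a common transcript were then combined. Hairpins on the same strand within 10 kb formed 56 clusters of 2 or more, and these held 47.0% ± 1.67 of the miRNA reads (SD, n = 3). The 10 most abundant clusters held 38.3% ± 1.19. Members of a cluster were far from equal in reads. In Mir23bMir27bMir24-1, on chromosome 13 from 63300484 to 63301275, miR-27b-3p had 18.6% of the miRNA reads while miR-23b-3p had 0.264% ± 0.0205 and miR-24-3p, counted from both its loci, 0.179% ± 0.0410. miR-27b-3p was thus 70.4 times as abundant as miR-23b-3p from the same cluster. This ratio depended on read ends. Only 43.5%, 44.4% and 45.5% of miR-23b-3p reads matched the hairpin to the last base, against 89.0%, 88.7% and 88.2% for miR-27b-3p.

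The miR-17~92 cluster on chromosome 14 (115043671 to 115044506), in the exon of Mir17hg, showed the same inequality. miR-92a-3p stood at 2.55%, and its partners were miR-17-5p at 0.0373% ± 0.00687, miR-20a-5p at 0.0304% ± 0.00577, miR-19b-3p at 0.0706% ± 0.00772, miR-19a-3p at 0.0156% ± 0.000827 and miR-18a-5p at 0.00947% ± 0.00197 (SD, n = 3). The cluster is known for growth control, and its total was 2.70% ± 0.354. miR-19b-3p is also made by Mir19b-2. The RefSeq sequence of miR-92a-3p occurs at 2 loci, and the share given is that counted to Mir92-1. With no unmatched base allowed miR-92a-3p stood at 0.672%, so the size of the inequality depended on read ends. In Mir191~Mir425 miR-191-5p was 35.3 times as abundant as miR-425-5p, in Mir30b~Mir30d miR-30d-5p was 7.37 times as abundant as miR-30b-5p, and in Mir16-1~Mir15a miR-16-5p, which Mir16-2 also makes, was 21.6 times as abundant as miR-15a-5p.

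Mir221~Mir222 was more even, as were miR-99b-5p and miR-125a-5p of Mir99bMirlet7eMir125a, and the leading arms of each cluster varied together. Mir221~Mir222 on the X chromosome (19146294 to 19146971, minus strand) held 2.03%, 3.00% and 3.38%, and miR-222-3p was 2.09 times as abundant as miR-221-3p. Mir99bMirlet7eMir125a, in an intron of Spaca6 on chromosome 17 (17830188 to 17830879), held 1.60%, 1.45% and 0.968%. Its 3 leading arms, miR-99b-5p, miR-125a-5p and let-7e-5p, were each lowest in Control 3. By mean share, miR-99b-5p was 1.46 times as abundant as miR-125a-5p and 6.33 times as abundant as let-7e-5p. Of the other leading clusters, Mirlet7dMirlet7f-1Mirlet7a-1 and Mirlet7f-2~Mir98 held 2.30% ± 0.123 and 1.59% ± 0.103 with shared arms divided equally between their loci. Mir15b~Mir16-2 held 1.55% ± 0.224. Mirlet7f-2~Mir98 and Mir15b~Mir16-2 were uneven: let-7f-5p was 26.2 times as abundant as miR-98-5p, and miR-16-5p 47.0 times as abundant as miR-15b-5p. Here let-7f-5p and miR-16-5p were counted from all their loci. By annotation, hairpins that overlap an exon of a same-strand gene gave 69.9% ± 1.32 of the reads, intronic hairpins 17.5% ± 0.554 and hairpins outside genes 12.6% ± 0.779. Overlap with an exon of any annotated transcript was enough for the exonic class. It held Mir27b, whose 3p arm alone gave 18.6% of the reads.

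The 3 samples were alike but differed by more than counting error. On the log2 scale the depth-scaled reads of the samples correlated at 0.989 to 0.990 over 353 to 376 arms, which is a description across arms that share the same 3 libraries. For 165 arms with a mean of at least 100 reads the median coefficient of variation (CV) of the share was 11.9%, where counting error alone gives a median of 3.35%. The CV was above counting error in 150 of the 165 arms and more than 2 times it in 125. Arms were highest in Control 3 more often than elsewhere (84 of 165, against 36 in Control 1 and 45 in Control 2) and lowest in Control 1 in 89. Shares of a sample add to a fixed total, so the arms in this tally are not independent. miR-21a-5p held 12.4% in Control 3, against 15.9% and 16.4% in Control 1 and 2. Whether the share of miR-21a-5p bears on the tally was not tested, and the tally was not repeated after TMM scaling.

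Among arms with at least 1000 reads, miR-210-3p, the miRNA best known for its rise in low oxygen, varied most. It stood at 0.427%, 0.187% and 0.216%, so that Control 1 was 2.29-fold above the lowest sample, and its CV was 47.4%. miR-99b-5p, at 0.890%, 0.770% and 0.486%, had a CV of 29.0%. miR-30a-5p at 0.0878%, 0.0518% and 0.0904% was low in Control 2 only, and had a CV of 28.1%. miR-222-3p, at 1.25%, 1.99% and 2.24%, and miR-351-5p, at 0.153%, 0.259% and 0.248%, were low in Control 1 and had CVs of 28.1% and 26.4%. The CVs of these 5 arms were 23.1% to 52.8% after TMM scaling.

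The least variable arms were miR-186-5p, with shares of 0.532%, 0.532% and 0.533% and a CV of 0.0669%, miR-22-3p (0.865%), let-7d-5p (0.895%), miR-29a-3p (2.18%) and miR-378a-3p (2.36%). For miR-186-5p and let-7d-5p this was below the CV of counting error, 0.935% and 1.49%. The small CVs rested on the scaling to total miRNA reads, since after TMM scaling the same arms had CVs of 5.06% to 7.77%.

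**Figure D5:**
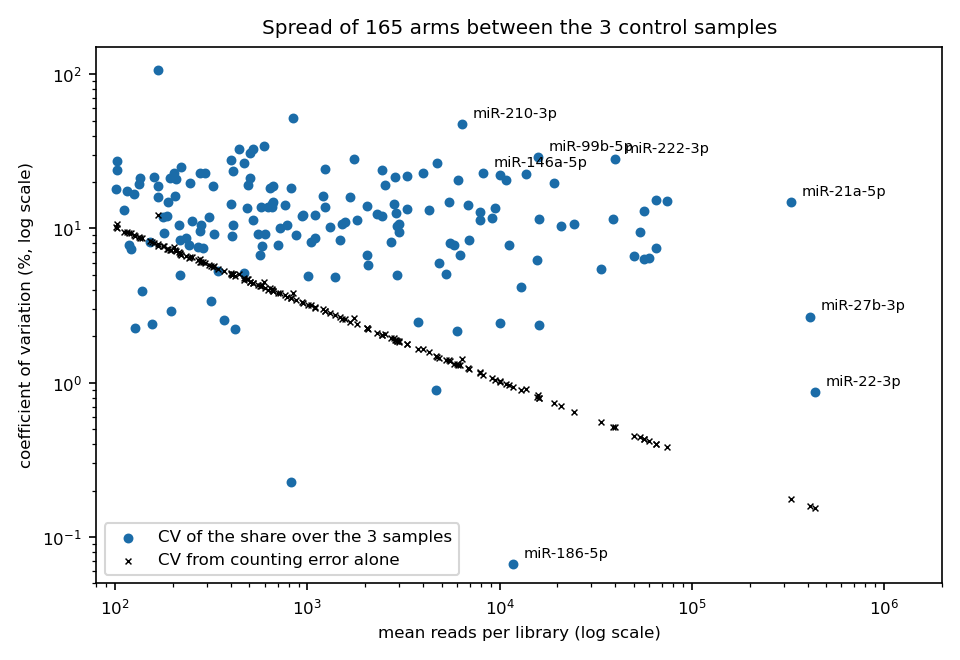
Coefficient of variation (percent, log axis) of the share over the 3 control samples against mean reads (log axis) for 165 arms, with crosses for the value that counting error alone gives. Most arms lie above the crosses near 11.9%, miR-210-3p lies at 47.4%, and miR-22-3p at 0.865% in spite of its depth.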

How the data were processed

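Small RNA libraries of the 3 Control samples were analysed. Per the study's methods the authors made TruSeq libraries, sequenced them on a HiSeq 1000, trimmed adaptors and quantified miRNAs with mirAnalyzer. The deposited files hold raw counts of each distinct trimmed read of 11 to 40 nt, with no miRNA names. The submitters' notes name mm9.

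From their 5′ end on, reads no shorter than 18 nt had to match 1 of 1174 GENCODE M21 (GRCm38) hairpins without mismatch, save for up to 3 bases at the 3′ end. The arm was set by the hairpin midpoint, arms sharing 50% of each other's reads were merged (53 arms), and ambiguous reads were given to the arm with most unambiguous ones. Names and mature sequences are from RefSeq. Matching was tested on simulated data. Arms were compared with edgeR 4.0.16 (R 4.3.3), quasi-likelihood, with the library as a block, total miRNA reads as library size, at least 100 reads and Benjamini-Hochberg adjustment at 0.05. The SE is the absolute log2 ratio divided by the square root of F. Shares have Wilson intervals (Python 3.11.15), which, like the limit of 3 reads, cover counting error only, as reads carry no molecular identifiers. Alternatives were DESeq2 1.42.0, limma 3.58.1, TMM, other read ends, filters, seeds and cluster gaps.

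Named were the 20 largest arms, 10 largest hairpin groups, seed families and clusters, 10 most even and 5 most one-sided groups each way and 5 most and 5 least variable arms (at least 1000 reads), listed markers of at least 10 reads, and miR-24 and miR-29. miR-298-5p, arms with divided or shifted starts and hairpins that did not pass the test are named besides, chosen after their values were seen. Members and lists were chosen with earlier results of these data known.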

Additional observations from a re-analysis of the deposited data

How the results depend on the processing

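With no unmatched 3′ base allowed, 60.4% of reads were assigned, the 10 leading arms held 76.5% and the 10 leading seed families 83.9%; with 1 allowed the last pair were 74.5% and 82.4%. The families held 81.3% with reads of 20 to 24 nt and 79.2% with the seed of each read itself, and the 10 arms held 68.7% of the total without miR-22-3p. The 10 clusters held 36.9% at a gap of 3 kb, 34.1% without shared arms and 45.9% with shared arms in full. With at least 10 reads 104 hairpin groups of 211 had more 5p and 96 more 3p reads, and with no filter 117 and 127 of 536. Without the replicate block these were 64 and 55, and with DESeq2 64 and 54. Leaving out each sample in turn gave 62 to 65 and 54 to 55 groups, 66.0% to 68.6% of reads assigned, 71.8% to 73.3% for the arms, 80.2% to 80.6% for the families, 37.6% to 38.8% for the clusters and a median CV of 8.62% to 11.7%, which was 15.2% with at least 10 reads and 51.8% with no filter. The miR-24 hairpins reversed, to 0.57, with exact matches; the cause was not tested. Of 357 recomputed ratios of named hairpins, 345 kept direction and call. Mir3963 gave no value with at most 1 unmatched base or with 20 to 24 nt reads, as too few reads were left. No groups of samples were compared, so samples were not paired, while the arms of a hairpin were compared within each library. Depth limits arms below 100 reads.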

Other observations

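miR-298-5p, below the read minimum for the arms named above, was the most variable of the 165 arms, with 95, 32 and 374 reads in Control 1, 2 and 3 and a CV of 106.2%. Thinned to the depth of the smallest library, 1713855 miRNA reads, 589.1, 602 and 620.4 arms with reads are expected on average in Control 1, 2 and 3.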
